A study of Homo sapiens with 8 samples.

Results

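Unstimulated CHP212 cells with a knockout of FAM193A (KO) were compared with unmodified CHP212 cells (WT), across every gene with enough reads. CHP212 is an established human neuroblastoma cell line. Both groups were kept for 12 h in the vehicle alone, DMSO at 0.2%, and gave 2 libraries of poly(A) RNA each, which the series' design text calls independent biological replicates. A gene was included when it had 10 or more reads in at least 2 of these 4 libraries, which took 15341 of the 25369 genes listed. The choice rests on depth. The labels name 1 KO population and do not describe its edit, so loss of FAM193A and any other property of that population cannot be told apart, and the p-values measure the spread between libraries rather than between KO populations. The other 4 libraries of the series came from the same WT and KO cells after 12 h with Nutlin-3a, an MDM2 inhibitor that activates p53, at 10 uM. They enter the model, and they give the genotype difference again in libraries of their own.

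Neuroblastoma arises from the sympathoadrenal lineage of the neural crest, whose cells become sympathetic neurons and the chromaffin cells of the adrenal medulla. Its cells lie between an adrenergic state, run by transcription factors such as PHOX2A and HAND2 and able to make and store catecholamines, and a mesenchymal state with crest, matrix and motility genes. The question here is what state KO cells were in before p53 was activated.

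Totals of the 4 DMSO libraries ran from 29387405 to 38010075 reads, and 99.97% of the reads of each fell on the included genes. Levels are CPM, a library's reads scaled by its total and the TMM factor. Replicates differed by more than counting noise (mean chi-square 2.62 over genes in WT and 2.36 in KO cells), so none was taken for a copy of another. FAM193A was read in every library, at 44.0 and 39.8 CPM in WT and 34.6 and 32.0 CPM in KO libraries, so that KO levels were below both WT levels (log2 fold change -0.33, SE 0.08, adjusted p = 9.6e-04). An edit can leave the transcript near its normal level, so this is a weak check of the labels. WT replicate 2 stood apart in 20 genes that were 8-fold or more above replicate 1, with 1208 reads in all. These are mostly genes of intestinal epithelium, such as CEACAM5 (0 and 91 reads in WT replicates 1 and 2) and CLCA1 (0 and 81 reads). Only COL1A2, PIGR and UPK3BL of the 20 had enough reads to be tested, and none of those 3 was called. No gene stood apart in this way in the KO libraries under DMSO. Under Nutlin-3a, 45 genes did in WT replicate 1 (2753 reads in all) and 18 in KO replicate 2 (786 reads). Without these 3 libraries, which leaves groups of 1 that are assumed to vary as the KO libraries under DMSO did, edgeR called 4983 genes higher and 4923 lower in KO cells under DMSO, and 6774 of them again in the same direction under Nutlin-3a.

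The genotypes differed at most genes. By edgeR's quasi-likelihood test at an adjusted p of 0.05, 4939 genes (32.2%) were higher and 4773 (31.1%) lower in KO than in WT cells, 63.3% of those tested in all. By more than 2-fold, 1522 genes (9.92%) were higher and 1092 (7.12%) lower, and by more than 8-fold 332 and 224. The median over all genes was 0.01 on the log2 scale, with the middle 50% of genes between -0.29 and 0.39. These shares are the background for every count of a gene group that follows. The WT and KO levels did not overlap in 12800 of the 15341 genes. Libraries that lie apart in a gene named below are therefore the usual case. Of the 15341 genes, 526 reached the read minimum in KO cells alone and 218 in WT cells alone. The reads of such a gene differed by that selection, though its scaled levels need not have. Both KO libraries also held more reads than either WT library, and the part of depth in these counts was not tested. Of the 526 and 218 genes, 394 and 205 changed by more than 2-fold. Over the 14597 genes with enough reads in both genotypes, 1128 (7.73%) were higher and 887 (6.08%) lower by more than 2-fold. In bulk RNA, fewer cells of a type and less RNA per cell cannot be told apart.

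Of the 12 largest rises, 10 were in genes below 1 CPM in both WT libraries, and VIP and ODAM were expressed above that level. NR5A2, the gene for the nuclear receptor LRH-1, had no read in WT cells and 7.91 and 6.99 CPM in KO libraries (at least 146-fold higher in KO, taking 3 reads over the WT group as the floor). NUDT10, an inositol pyrophosphate phosphatase gene, likewise went from no read to 6.43 and 7.38 CPM (at least 136-fold higher in KO). VIP, the gene for vasoactive intestinal peptide, stood at 9.08 and 9.21 CPM in WT and 1088 and 1031 CPM in KO libraries (log2 fold change 6.86, SE 0.07, adjusted p = 1.4e-20). NR5A2 and NUDT10 thus went from no read to several CPM, and VIP rose from a clear level to a high one. TMPRSS15, which encodes the intestinal protease enterokinase, stood at 0.557 and 0.595 CPM in WT and 128 and 128 CPM in KO libraries (log2 fold change 7.79, SE 0.15). ODAM, which encodes a secreted protein of the tooth enamel organ, was at 1.51 and 1.79 CPM in WT against 168 and 161 CPM in KO libraries (log2 fold change 6.64, SE 0.09). Its neighbour FDCSP was at 0.164 and 0.07 CPM in WT against 24.9 and 26.9 CPM in KO libraries (log2 fold change 7.73, SE 0.25). These 3 are genes of tissues far from the sympathoadrenal lineage, and the KO replicates gave nearly the same level for each. PLIN2, the lipid droplet coat gene, rose from 0.0655 and 0.07 to 20.9 and 19.9 CPM (log2 fold change 8.16, SE 0.23). SLC18A3, which loads acetylcholine into synaptic vesicles, stood at 0.0655 and 0.14 CPM in WT and 11.2 and 12.0 CPM in KO libraries (log2 fold change 6.78, SE 0.31). Neither gene had more than a few reads in a WT library. The calmodulin regulator PCP4 (log2 fold change 6.72, SE 0.37), the Golgi mannosidase MAN1C1 (7.08, SE 0.29) and MEGF11 (178-fold higher in KO, interval 49.0 to 1474), an adhesion gene of retinal neurons, complete the list with RTN1, given with the neuronal genes. Intervals on such ratios are 95% intervals that cover counting error only.

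The largest falls included genes that were well expressed in WT cells and nearly silent in KO cells. FOXL2, a forkhead factor best known from the ovary, stood at 61.1 and 60.4 CPM in WT and 0.0278 and 0.0516 CPM in KO libraries (1512-fold higher in WT, interval 517 to 7334). FOXL2NB beside it, which may share its reads, was at 42.4 and 40.5 CPM in WT against 0.111 and 0.181 CPM in KO libraries. MYD88, the adaptor that carries Toll-like receptor and interleukin-1 signals, stood at 19.4 and 20.7 CPM in WT and 0.167 and 0.284 CPM in KO libraries (log2 fold change -6.44, SE 0.19, adjusted p = 3.2e-15). ICOSLG, the gene for the T cell costimulatory ligand, fell from 31.9 and 25.9 to 0.473 and 0.31 CPM (log2 fold change -6.20, SE 0.25). Genes without overlap of the genotypes were chosen here, so the KO libraries of each lay below both WT libraries by that choice. LAPTM5, a lysosomal membrane gene of blood cells, was at 4.46 and 4.31 CPM in WT against 0.0278 and 0 CPM in KO libraries (327-fold higher in WT, interval 58.2 to 12980.0). The tetraspanin TSPAN32 (log2 fold change -6.60, SE 0.48) and the kinase SBK3 (-6.40, SE 0.24) were lower as well. GPR183, CRH, ITGA8, SHOX2 and FLT1 are given with their groups.

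**Figure D1:**
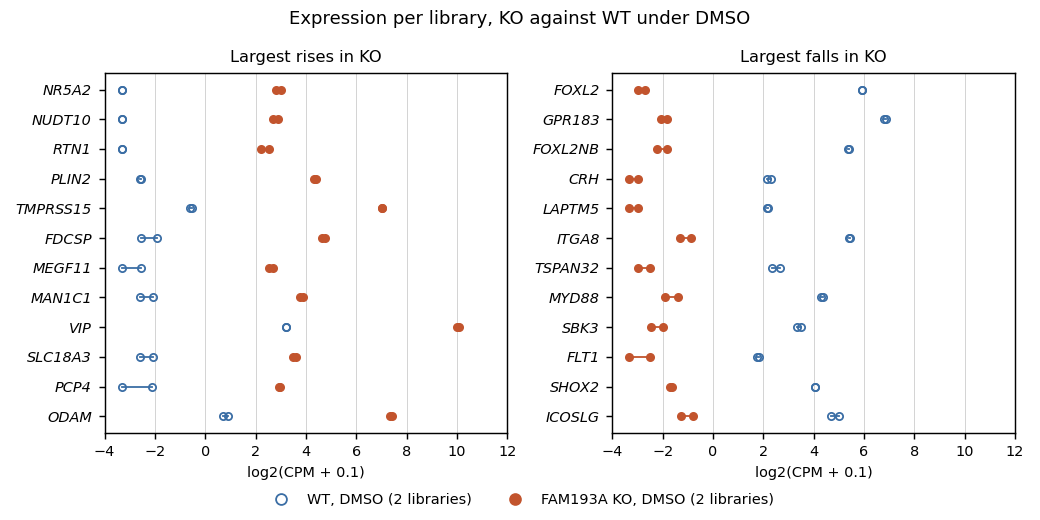
Level of each of the 12 genes with the largest rise (left) and the 12 with the largest fall (right) in every DMSO library, as log2(CPM + 0.1) on the x axis, with open circles for the 2 WT and filled circles for the 2 KO libraries. The replicates of a genotype lie close together. The 24 genes were chosen among those without overlap of the genotypes, as held for 12800 of the 15341 genes tested.

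Markers of cell types were used to check the label. All 15 adrenergic markers were read, with a summed level of 4985 to 5013 CPM in WT and 4712 to 4782 CPM in KO libraries, most of it MYCN. Of the 9 glial markers, SOX10, FOXD3 and FABP7 had under 10 reads in every library, and the sum was at most 2.95 CPM. The 10 mesenchymal markers summed to 2555 to 2653 CPM in WT and 1961 to 1981 CPM in KO libraries. Markers of blood, liver and muscle summed to under 2 CPM in each DMSO library, with CD3E and TTR at 0. The 4 melanocyte markers, mostly MITF, summed to 14.35 to 16.5 CPM in WT and 9.42 to 10.8 CPM in KO libraries, with TYR at 0. The 5 endothelial markers summed to 2.88 to 3.05 CPM in WT and 7.90 to 9.24 CPM in KO libraries, mostly through VWF, with KDR at 0. The 5 epithelial markers, nearly all of it KRT8 and KRT18, summed to 583 to 604 CPM in WT and 256 to 282 CPM in KO libraries, and the 6 fibroblast markers, nearly all of it COL1A1, to 3895 to 3995 and 4208 to 4464 CPM. Of the adrenergic markers, DBH, CHGA, CHGB and STMN2 were under 1 CPM in both WT libraries. CHGB and STMN2 stayed under 2 CPM in both KO libraries. Both genotypes thus carry most of the adrenergic markers, beside mesenchymal and fibroblast markers, which is a weak check of the label. The part that the shifts in epithelial, endothelial and melanocyte markers have in the results below was not tested.

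Gene groups were described from 54 lists. Lists were ranked by the share of members called and changed by more than 2-fold. The highest were neuropeptides (81.8%), cadherins (68.0%), granule genes (61.9%), matrix glycoproteins (61.2%) and G protein-coupled receptors (59.7%). Over all tested genes 9.92% were higher and 7.12% lower by that much. In these lists 1 of 11, 5 of 25, 3 of 21, 4 of 49 and 7 of 67 members reached the read minimum in 1 genotype alone. The order rests in part on them. Oxidative phosphorylation, G2/M, and pentose phosphate and glycogen genes had no member called and changed by more than 2-fold. The medians of the patterning, serine and folate, WNT, cAMP, collagen, tetraspanin and chromatin lists took either sign with another scaling or with 1 library left out, so no direction is given for them.

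**Figure D2:**
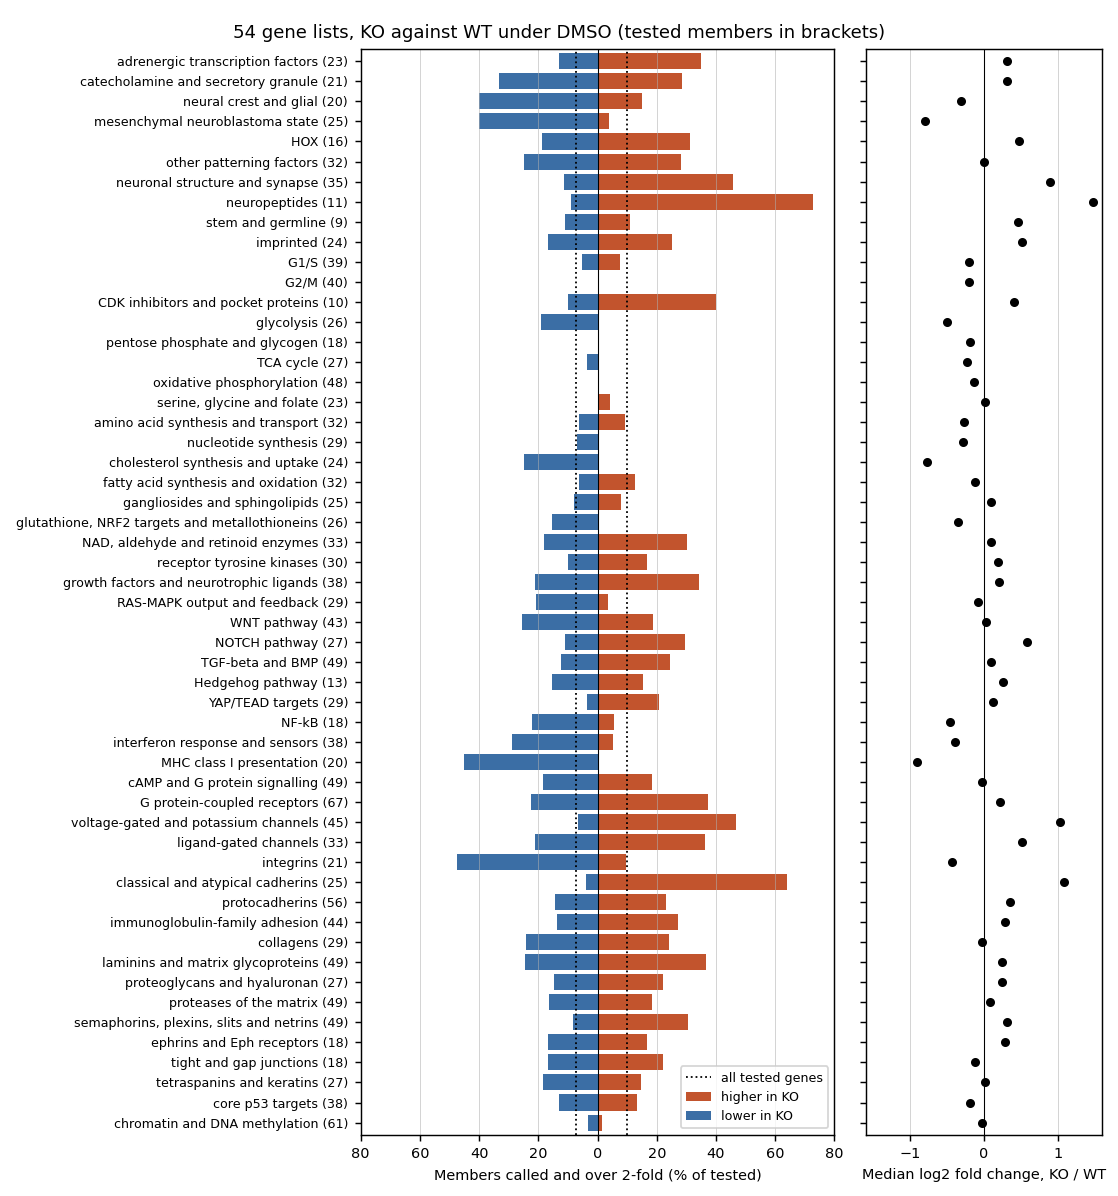
Share of tested members of each of 54 gene lists that were called and changed by more than 2-fold (left, % of tested members, higher in KO to the right and lower to the left) and the median log2 fold change of the list (right). Dotted lines mark the shares over all tested genes, 9.92% higher and 7.12% lower.

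Adrenergic transcription factors were mostly higher in KO cells. Of 23 tested, 15 were higher, 6 were lower and 2 did not pass the test, with 8 higher and 3 lower by more than 2-fold and a median of 0.31. PHOX2A, a homeodomain factor that switches on catecholamine genes, stood at 12.2 and 13.3 CPM in WT and 60.5 and 62.3 CPM in KO libraries (log2 fold change 2.27, SE 0.07, adjusted p = 1.2e-14). SATB1, a chromatin organiser, was at 0.95 and 0.385 CPM in WT against 31.3 and 30.3 CPM in KO libraries (log2 fold change 5.50, SE 0.18). In both genes the KO libraries lay far above both WT libraries. The LIM-only cofactor LMO1 was at 0.262 and 0.315 CPM in WT against 1.86 and 1.68 CPM in KO libraries (log2 fold change 2.60, SE 0.43). The members that follow were chosen after their values were seen, as factors known from this lineage. INSM1, a neuroendocrine repressor, stood at 10.4 and 14.2 CPM in WT and 54.8 and 56.3 CPM in KO libraries (log2 fold change 2.18, SE 0.12). HAND2 was at 609.7 and 590.1 CPM in WT against 835 and 851 CPM in KO libraries (log2 fold change 0.49, SE 0.05). Both were already expressed in WT cells and higher in both KO libraries. The LIM factor ISL1 went the other way (log2 fold change -1.25, SE 0.11), from 15.3 and 13.9 to 6.12 and 6.17 CPM, and so did GATA3 (-0.87, SE 0.06) and TBX2 (-0.60, SE 0.05). GATA3 and the lower member DACH1 lie in long stretches of neighbouring genes that were lower together, described at the end, GATA3 at some settings only.

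Genes that make and store catecholamines did not move as a block. Of 21 tested, 10 were higher, 8 were lower and 3 did not pass the test, with 6 higher and 7 lower by more than 2-fold. The median was 0.31 with all 4 libraries, 0.05 to 0.30 with 1 of them left out, and 0.15 over the 18 members with enough reads in both genotypes. Along the synthesis route, TH, the rate-limiting tyrosine hydroxylase, was lower (log2 fold change -5.54, SE 0.06). DBH, which turns dopamine into noradrenaline, stood at 0.622 and 0.385 CPM in WT and 29.3 and 31.7 CPM in KO libraries (log2 fold change 5.90, SE 0.25, adjusted p = 1.2e-09). SLC6A2, the noradrenaline transporter, stood at 3.51 and 3.22 CPM in WT and 0.0557 and 0.103 CPM in KO libraries (log2 fold change -5.32, SE 0.39, adjusted p = 1.8e-09). Transcripts for the entry step of synthesis and for reuptake were thus lower, and that for the step from dopamine to noradrenaline was higher. Among granule proteins, CHGA was higher (log2 fold change 6.09, SE 0.19). VGF, a secreted neuropeptide precursor chosen after its values were seen, stood at 256 and 267 CPM in WT and 78.7 and 70.1 CPM in KO libraries (log2 fold change -1.81, SE 0.10, adjusted p = 1.5e-07). Further members chosen in the same way were the granin SCG2 (-1.45, SE 0.06) and the adrenaline-making PNMT (-2.78, SE 0.20), both lower, and the calcium sensors SYT4 (4.61, SE 0.22) and SYT7 (3.94, SE 0.13), both higher.

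**Figure D3:**
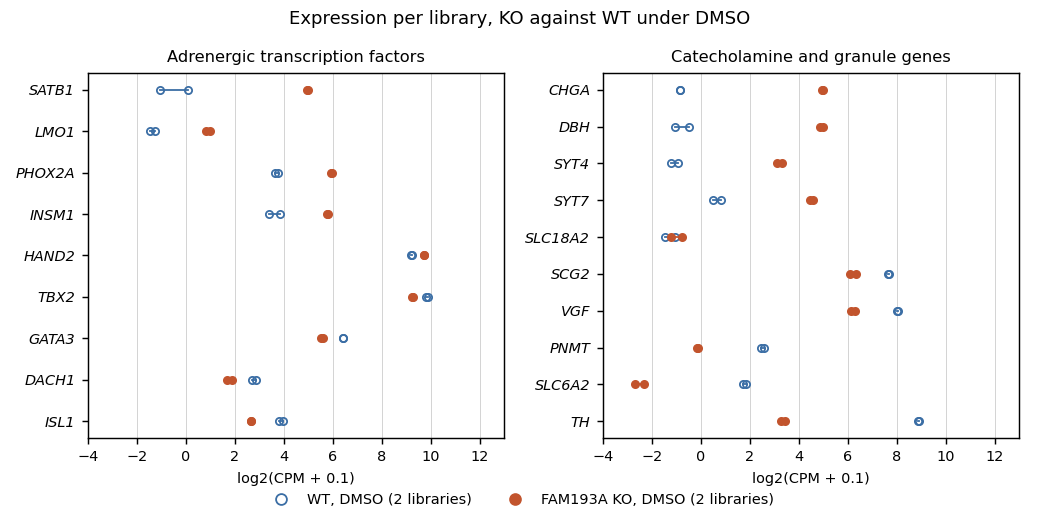
Level of the adrenergic transcription factors (left) and the catecholamine and granule genes (right) that the text names, in every DMSO library, as log2(CPM + 0.1), with open circles for WT and filled circles for KO, ordered by log2 fold change. CHGA, DBH and SATB1 sit far to the right in KO cells, and TH and SLC6A2 far to the left.

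The promoter windows of CHGA, which was higher, and VGF, which was lower, hold the letters TGACGTCA, the cAMP response element. Both are shown with that motif in capitals, and its part in these changes was not tested. VIP is shown with its matches to the shorter TGACG, which TGACGTCA also holds on each strand. Each run is the 250 bases before the RefSeq start site, 5′ to 3′ on the gene's strand, in GRCh38.p14. CHGA lies on the plus strand (chr14:92922900-92923149) with the match 54 bases before the start, VGF on the minus strand (chr7:101165570-101165819) with the match 79 bases before it, and VIP on the plus strand (chr6:152750547-152750796) with matches at 89 and 79 bases.
CHGA: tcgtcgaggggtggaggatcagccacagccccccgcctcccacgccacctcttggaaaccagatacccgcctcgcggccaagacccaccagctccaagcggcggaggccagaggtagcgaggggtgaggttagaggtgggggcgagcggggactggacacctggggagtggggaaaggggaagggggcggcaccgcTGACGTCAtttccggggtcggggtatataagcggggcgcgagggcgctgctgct
VGF: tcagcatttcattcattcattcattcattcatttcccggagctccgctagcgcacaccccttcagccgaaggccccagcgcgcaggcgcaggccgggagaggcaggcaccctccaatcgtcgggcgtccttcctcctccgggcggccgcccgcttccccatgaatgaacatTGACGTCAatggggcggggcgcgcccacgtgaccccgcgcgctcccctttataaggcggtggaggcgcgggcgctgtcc
VIP: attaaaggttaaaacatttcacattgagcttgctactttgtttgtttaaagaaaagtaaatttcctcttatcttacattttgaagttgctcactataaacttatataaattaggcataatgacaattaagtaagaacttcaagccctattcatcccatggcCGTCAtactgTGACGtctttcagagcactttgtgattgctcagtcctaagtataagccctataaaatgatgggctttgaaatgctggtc
Searched on both strands, TGACGTCA was found in 1.65% and TGACG in 21.2% of 35116 RefSeq promoter windows of this length. Of the 21 tested granule genes 13 had a window, and 3 held TGACGTCA in at least 1 window, namely CHGA, VGF and SLC18A2. That is a count of genes, whereas the shares above are of single windows. A match is a description of the letters and says nothing of what binds there.

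Neuropeptide genes were mostly higher. Of 11 tested, 8 were higher, 2 were lower and 1 did not pass the test, and 8 were more than 2-fold higher (median 1.47, 1.37 to 1.58 with 1 library left out). VIP has been given. CALCB, the gene for a calcitonin gene-related peptide, stood at 4.82 and 5.08 CPM in WT and 30.3 and 29.8 CPM in KO libraries (log2 fold change 2.60, SE 0.10, adjusted p = 1.6e-13). PTHLH, the gene for parathyroid hormone-related protein, stood at 0.622 and 1.23 CPM in WT and 7.46 and 5.75 CPM in KO libraries (log2 fold change 2.84, SE 0.24, adjusted p = 1.4e-08). The WT and KO libraries of both genes lay well apart. Of 3 members chosen after their values were seen, the sympathetic neuropeptide NPY stood at 54.4 and 58.4 CPM in WT and 169 and 144 CPM in KO libraries (log2 fold change 1.47, SE 0.08). Galanin (GAL) stood at 185 and 185 CPM in WT and 487 and 477 CPM in KO libraries (log2 fold change 1.38, SE 0.07). ADCYAP1, which encodes PACAP, stood at 21.6 and 25.2 CPM in WT and 103 and 104 CPM in KO libraries (log2 fold change 2.15, SE 0.06). These peptide genes were thus already expressed in WT cells and higher in KO cells. The 2 lower members of the list became 1 with any 1 DMSO library left out. CRH, the corticotropin-releasing hormone gene, was the exception, at 4.88 and 4.34 CPM in WT and 0.0278 and 0 CPM in KO libraries (345-fold higher in WT, interval 61.4 to 13680.0).

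Genes of neuronal structure and synapse were higher more often than lower. Of 35 tested, 20 were higher, 9 were lower and 6 did not pass the test, with 16 higher and 4 lower by more than 2-fold. The median was 0.89, and 0.41 over the 30 members with enough reads in both genotypes, since 5 reached the minimum in KO cells alone. RTN1, a reticulon of the neuronal endoplasmic reticulum, had no read in WT and 4.51 and 5.75 CPM in KO libraries (at least 102-fold higher in KO). SYN2, the synaptic vesicle protein synapsin II, stood at 7.96 and 7.63 CPM in WT and 53.7 and 52.6 CPM in KO libraries (log2 fold change 2.77, SE 0.08, adjusted p = 3.0e-15). ELAVL2, a neuronal RNA-binding protein, stood at 2.39 and 2.31 CPM in WT and 32.5 and 32.1 CPM in KO libraries (log2 fold change 3.78, SE 0.10, adjusted p = 1.1e-15). SYN2 and ELAVL2 were higher in both KO libraries, a separation that most tested genes share. RTN1 reached the read minimum in KO cells alone, so the separation of its reads follows from that selection. DCX, the microtubule protein gene of migrating neurons, stood at 0.0655 and 0.07 CPM in WT and 1.17 and 1.75 CPM in KO libraries (log2 fold change 4.36, SE 0.55, adjusted p = 1.8e-06). ELAVL2 belongs to a long stretch of neighbouring genes that were higher together. Several cytoskeletal members were lower, among them the microtubule proteins MAP2 (log2 fold change -1.77, SE 0.06) and MAP1B (-1.16, SE 0.06) and the neuronal tubulin TUBB3 (-0.78, SE 0.05), all 3 chosen after their values were seen.

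Ion channel genes were higher more often than lower. Of 45 voltage-gated and potassium channel genes tested, 24 were higher, 10 were lower and 11 did not pass the test, and 21 were more than 2-fold higher against 3 lower. The median was 1.03 (0.72 to 1.13 with 1 library left out), and 0.82 over the 40 members with enough reads in both genotypes. The 10 lower channels became 6 without KO replicate 1. KCNJ2, an inward rectifier that sets the resting potential, stood at 0.852 and 0.7 CPM in WT and 50.9 and 55.5 CPM in KO libraries (log2 fold change 6.09, SE 0.19, adjusted p = 1.4e-11). KCNJ11, the pore of the ATP-sensitive potassium channel, stood at 1.54 and 0.84 CPM in WT and 23.7 and 22.0 CPM in KO libraries (log2 fold change 4.25, SE 0.16, adjusted p = 1.5e-13). KCNH1 (log2 fold change 3.08, SE 0.20) and the sodium channel subunit SCN3B (4.75, SE 0.34) were higher too. Among 33 ligand-gated channels 16 were higher and 8 lower, and 10 of the 33 reached the read minimum in 1 genotype alone. Over the other 23, 7 were higher and 3 lower by more than 2-fold. CHRNA3, the nicotinic receptor subunit of sympathetic ganglia, stood at 83.7 and 81.0 CPM in WT and 698 and 724 CPM in KO libraries (log2 fold change 3.11, SE 0.06, adjusted p = 6.0e-18). The kainate receptor gene GRIK3 had no read in WT libraries and 1.48 and 1.14 CPM in KO libraries (at least 25.6-fold higher in KO). The AMPA receptor gene GRIA4 (log2 fold change -3.58, SE 0.22) and CHRNA9 (-5.32, SE 0.43) were lower.

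Neural crest and mesenchymal genes were lower more often than higher. Of 20 crest and glial genes, 6 were higher, 11 were lower and 3 did not pass the test (median -0.31). The 11 lower became 8 to 9 with 1 library left out. The crest specifier TFAP2A stood at 11 and 11.2 CPM in WT and 1.67 and 1.81 CPM in KO libraries (log2 fold change -2.67, SE 0.15, adjusted p = 3.7e-11). The homeodomain factor MSX1 stood at 44.4 and 43.4 CPM in WT and 5.71 and 6.50 CPM in KO libraries (log2 fold change -2.84, SE 0.10, adjusted p = 2.9e-14). EDNRA, an endothelin receptor, was at 9.89 and 11.1 CPM in WT against 99.8 and 96.5 CPM in KO libraries (log2 fold change 3.23, SE 0.07), and NGFR, a neurotrophin receptor gene, was higher too (1.56, SE 0.09). TFAP2A and MSX1 were thus lower and these 2 receptors higher. Of 25 genes of the mesenchymal neuroblastoma state, 5 were higher, 18 were lower and 2 did not pass the test (median -0.80). The AP-1 factor FOSL1 stood at 47.0 and 52.4 CPM in WT and 8.88 and 6.79 CPM in KO libraries (log2 fold change -2.67, SE 0.11, adjusted p = 4.4e-10). The secreted matrix protein TGFBI stood at 4.03 and 6.72 CPM in WT and 0.529 and 0.748 CPM in KO libraries (log2 fold change -3.05, SE 0.31, adjusted p = 4.1e-07). The mesenchymal factors RUNX1 (log2 fold change -1.53, SE 0.07), RUNX2 (-1.49, SE 0.07) and PRRX1 (-1.0, SE 0.06) were lower as well, whereas fibronectin (FN1, 1.08, SE 0.11) was higher, these 4 chosen after their values were seen.

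Positional and imprinted genes changed within their clusters. Of 16 HOX genes tested, 8 were higher, 4 were lower and 4 did not pass the test. HOXD4 stood at 51 and 50.5 CPM in WT and 128 and 123 CPM in KO libraries (log2 fold change 1.31, SE 0.05). HOXD11 (log2 fold change -2.09, SE 0.25), HOXD13 (-1.72, SE 0.31) and HOXB3 (-1.69, SE 0.12) were lower. HOXD9 (1.14, SE 0.05) and HOXD3 (0.98, SE 0.07), chosen after their values were seen, were higher, so the HOXD cluster held changes in both directions. Among 32 other patterning factors 13 were higher and 13 lower, and 9 and 8 by more than 2-fold. PAX9, a pharyngeal pouch factor, fell from 88.6 and 86.6 to 2.87 and 2.48 CPM (log2 fold change -5.04, SE 0.08, adjusted p = 1.2e-18). SHOX2, a limb and heart factor, fell from 16.5 and 16.3 to 0.223 and 0.206 CPM (log2 fold change -6.23, SE 0.20, adjusted p = 1.1e-14). NKX6-1, a spinal cord and islet factor, was at 1.34 and 1.47 CPM in WT against 0.0278 and 0.0258 CPM in KO libraries (52.5-fold higher in WT, interval 14.1 to 440.4). These 3 factors were nearly off in KO cells. EBF3, a neuronal differentiation factor, rose from 0.426 and 0.105 to 10.5 and 11.3 CPM (log2 fold change 5.31, SE 0.27, adjusted p = 6.6e-12). Of 24 imprinted genes, 15 were higher, 6 were lower and 3 did not pass the test. The Notch-like protein gene DLK1 stood at 0.0655 and 0.14 CPM in WT and 2.42 and 2.86 CPM in KO libraries (log2 fold change 4.65, SE 0.38). MEG3, the noncoding RNA of the same imprinted domain, stood at 12.4 and 9.56 CPM in WT and 105 and 105 CPM in KO libraries (log2 fold change 3.25, SE 0.13). The paternally expressed DLK1 and the maternally expressed MEG3 were thus both higher. CDKN1C, the cell cycle inhibitor p57, was higher (log2 fold change 1.77, SE 0.18) and PHLDA2 lower (-2.80, SE 0.11). Of the 9 stem and germline genes tested, PROM1, which encodes the surface antigen CD133, stood at 9.60 and 9.70 CPM in WT and 142 and 138 CPM in KO libraries (log2 fold change 3.86, SE 0.06, adjusted p = 1.2e-18).

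Proliferation genes differed little in size. Of 39 G1/S genes 7 were higher, 22 were lower and 10 did not pass the test (median -0.20), and of 40 G2/M genes 4 were higher, 25 were lower and 11 did not pass the test (median -0.20), with no G2/M member changed by more than 2-fold. The 25 lower G2/M genes became 18 to 23 with 1 library left out. The 5 G1/S genes past 2-fold were CDK6, CCND1 and 3 E2F factors. CDK6, the kinase that starts the cycle, stood at 128 and 124 CPM in WT and 342 and 349 CPM in KO libraries (log2 fold change 1.45, SE 0.05, adjusted p = 3.4e-14). CCND1, the gene of its partner cyclin D1, stood at 935 and 941 CPM in WT and 419.9 and 403 CPM in KO libraries (log2 fold change -1.19, SE 0.05, adjusted p = 6.8e-13). Of the E2F factors, E2F8 (log2 fold change 3.05, SE 0.25) and E2F2 (1.79, SE 0.13) were higher and E2F7 (-1.21, SE 0.06) lower. The cyclin-dependent kinase inhibitor gene CDKN2B stood at 0.262 and 0.21 CPM in WT and 2.45 and 1.93 CPM in KO libraries (log2 fold change 3.19, SE 0.32, adjusted p = 9.3e-08). RB1, the pocket protein gene, stood at 115 and 117 CPM in WT and 32.1 and 32.9 CPM in KO libraries (log2 fold change -1.83, SE 0.05, adjusted p = 1.9e-15). CDKN2A and CDKN2B lie in the long stretch that was higher, and RB1 in one that was lower.

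Energy metabolism genes were lower more often than higher, mostly by small amounts. Of 26 glycolysis genes 1 was higher, 22 were lower and 3 did not pass the test (median -0.50). SLC16A3, the transporter that exports lactate, stood at 219 and 213 CPM in WT and 12.7 and 10.3 CPM in KO libraries (log2 fold change -4.23, SE 0.07, adjusted p = 2.3e-18). SLC2A1, the glucose transporter gene, stood at 29.1 and 29.8 CPM in WT and 13.9 and 12.5 CPM in KO libraries (log2 fold change -1.16, SE 0.08, adjusted p = 3.7e-10). Lactate export and glucose import genes thus lay well below their WT level. PFKFB3 and PFKP, also more than 2-fold lower, belong to long stretches of lower genes, and so do SUCLA2 of the TCA cycle and, at some settings, ATP5C1 of ATP synthase. Of 27 TCA cycle genes 18 were lower and none was higher, and 15 to 16 were lower with 1 library left out. Fumarate hydratase (FH) stood at 117 and 116 CPM in WT and 64.0 and 62.1 CPM in KO libraries (log2 fold change -0.88, SE 0.05, adjusted p = 6.1e-11). Of 48 oxidative phosphorylation genes 24 were lower and 3 higher (median -0.14), and 16 to 19 were lower with 1 library left out. The 3 higher became 1 without WT replicate 1 or KO replicate 2. Of 18 pentose phosphate and glycogen genes 12 were lower and 3 higher, the latter including PGM1 (log2 fold change 0.74, SE 0.10). The 12 lower became 8 to 10 with 1 library left out. Nucleotide synthesis genes were lower in 19 of 29 cases and higher in 5, as for the purine salvage enzyme PNP (-1.09, SE 0.05) and IMPDH1 (-0.70, SE 0.05), both lower.

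Amino acid and redox genes held larger single changes. Of 32 amino acid genes, 10 were higher, 17 were lower and 5 did not pass the test. The glutamate transporter SLC1A3 fell from 31.1 and 27.5 to 2.67 and 3.02 CPM (log2 fold change -3.36, SE 0.11, adjusted p = 2.0e-14). ASS1, the argininosuccinate synthase of arginine synthesis, rose from 272 and 255 to 1051 and 1039.7 CPM (log2 fold change 1.99, SE 0.05, adjusted p = 6.8e-16). The transporter and the enzyme gene thus moved in opposite directions. Of 26 glutathione, NRF2 target and metallothionein genes, 3 were higher, 19 were lower and 4 did not pass the test (median -0.35). The 3 higher became 1 without WT replicate 1 or KO replicate 1. The metallothionein gene MT2A stood at 72.6 and 91.2 CPM in WT and 18.8 and 15.4 CPM in KO libraries (log2 fold change -2.26, SE 0.18, adjusted p = 3.8e-05), with the reservation that metallothionein copies can share reads. Of 33 genes for NAD, aldehyde and retinoid enzymes 15 were higher and 13 lower. NMNAT2, which makes NAD in axons, fell from 24.7 and 28.6 to 0.863 and 0.206 CPM (log2 fold change -5.66, SE 0.23, adjusted p = 7.9e-10). STRA6, the retinol uptake receptor, fell from 113 and 111 to 12.3 and 12.3 CPM (log2 fold change -3.19, SE 0.06, adjusted p = 1.6e-17). IDO1, whose enzyme degrades tryptophan, fell from 11.2 and 10.6 to 0.835 and 0.955 CPM (log2 fold change -3.60, SE 0.17, adjusted p = 2.6e-12). The retinoic acid synthesis genes ALDH1A3 (log2 fold change 2.43, SE 0.06) and ALDH1A1 (2.87, SE 0.21), chosen after their values were seen, were higher, so uptake and synthesis genes of the retinoid route moved apart.

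Every cholesterol gene tested differed between the genotypes. Of 24, 22 were lower and 2 higher (median -0.77), the latter being TM7SF2 (log2 fold change 0.31, SE 0.08) and SC5D (0.35, SE 0.05), named after their values were seen. The synthesis genes HMGCS1 (log2 fold change -1.19, SE 0.04), FDPS (-0.81, SE 0.06) and MSMO1 (-0.69, SE 0.07), from the start, the middle and the end of the pathway, were all lower. Of 32 fatty acid genes 16 were lower and 8 higher, and the latter were 5 without KO replicate 2. Fatty acid synthase (FASN, -0.72, SE 0.05) and the desaturase SCD (-1.06, SE 0.04), chosen after their values were seen, were lower. CD36, the fatty acid uptake receptor gene, rose from 186 and 189 to 585 and 595 CPM (log2 fold change 1.66, SE 0.05, adjusted p = 1.6e-15). ACACB, the mitochondrial acetyl-CoA carboxylase gene, rose from 22.6 and 17.8 to 78.6 and 79.1 CPM (log2 fold change 1.96, SE 0.09, adjusted p = 4.1e-10).

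Promoters of 3 cholesterol genes that were lower together are shown with CCAAT, the box bound by NF-Y, in capitals on either strand. They are the 250 bases before the RefSeq start, 5′ to 3′ on the gene's strand, in GRCh38.p14, with HMGCS1 on the minus strand (chr5:43313413-43313662, the upstream of its 2 start sites), FDPS on the plus strand (chr1:155308616-155308865) and MSMO1 on the plus strand (chr4:165327419-165327668).
HMGCS1: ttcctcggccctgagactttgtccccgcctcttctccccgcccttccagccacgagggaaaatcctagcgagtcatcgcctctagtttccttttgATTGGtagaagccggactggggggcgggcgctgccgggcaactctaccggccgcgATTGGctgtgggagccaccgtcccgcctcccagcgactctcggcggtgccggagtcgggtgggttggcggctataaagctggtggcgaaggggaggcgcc
FDPS: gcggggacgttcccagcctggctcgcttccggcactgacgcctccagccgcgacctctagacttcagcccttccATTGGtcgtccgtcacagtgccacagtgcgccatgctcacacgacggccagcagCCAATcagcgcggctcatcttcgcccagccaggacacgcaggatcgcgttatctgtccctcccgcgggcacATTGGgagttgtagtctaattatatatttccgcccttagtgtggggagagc
MSMO1: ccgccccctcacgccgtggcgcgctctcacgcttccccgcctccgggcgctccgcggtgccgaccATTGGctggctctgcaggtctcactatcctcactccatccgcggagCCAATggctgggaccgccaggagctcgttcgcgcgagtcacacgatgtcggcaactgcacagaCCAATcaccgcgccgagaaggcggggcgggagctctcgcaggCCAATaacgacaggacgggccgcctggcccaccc
CCAAT lay 155 and 100 bases before the start in HMGCS1, 176, 122 and 51 bases before it in FDPS, and 185, 139, 76 and 34 bases before it in MSMO1. The window of the other HMGCS1 start site held none. Of 24 tested cholesterol genes 18 had a window, and 16 of those held CCAAT in at least 1 window. These 18 genes had 23 windows. Over single windows, 32.0% of the 35116 held it, which is a different unit from a count of genes. TM7SF2 and SC5D, which were higher, are among the 16. As nearly all 18 genes held the letters, the list could hardly show whether they separate lower from higher members. That was not tested.

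Growth factor ligands, receptors and output genes changed in both directions. Among 38 ligands, 19 were higher, 13 were lower and 6 did not pass the test, with 13 higher and 8 lower by more than 2-fold. The EGF receptor ligand EREG stood at 34.3 and 37.3 CPM in WT and 6.18 and 4.64 CPM in KO libraries (log2 fold change -2.73, SE 0.10, adjusted p = 1.1e-13). The lymphatic growth factor VEGFC stood at 18.4 and 19.2 CPM in WT and 2.67 and 2.48 CPM in KO libraries (log2 fold change -2.87, SE 0.12, adjusted p = 4.9e-13). PDGFA, a ligand for mesenchymal cells, stood at 8.62 and 6.13 CPM in WT and 52.3 and 49.8 CPM in KO libraries (log2 fold change 2.78, SE 0.10, adjusted p = 1.0e-13). EREG and VEGFC were thus well below their WT level and PDGFA above it. Among 30 receptor tyrosine kinases, 11 were higher, 7 were lower and 12 did not pass the test, a share near that over all genes. ERBB4, a neuregulin receptor, was at 0.688 and 0.455 CPM in WT against 13.8 and 12.7 CPM in KO libraries (log2 fold change 4.52, SE 0.37). The WNT5A receptor ROR2 (log2 fold change 2.93, SE 0.11) and the insulin receptor relative INSRR (3.58, SE 0.26) were higher too. FLT1, a VEGF receptor in a long stretch of lower genes, was at 3.28 and 3.47 CPM in WT against 0 and 0.0774 CPM in KO libraries (83.8-fold higher in WT, interval 28.3 to 410.0). RET, the receptor of glial neurotrophic factors in sympathetic neurons, was chosen after its values were seen. It stood at 545 and 532 CPM in WT and 961 and 958 CPM in KO libraries (log2 fold change 0.83, SE 0.05). Both KO levels of RET were above both WT levels. Downstream, 8 of 29 RAS-MAPK output genes were higher and 13 lower, as for EGR3 (log2 fold change -2.18, SE 0.10) and ETV1 (-1.70, SE 0.06), both lower.

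Developmental pathways held changes in both directions. In the NOTCH pathway 18 of 27 genes were higher and 6 lower (median 0.58). With 1 library left out 14 to 15 were higher and 4 to 6 lower. The median was 0.46 over the 24 members with enough reads in both genotypes. The ligand DLL3 stood at 13.9 and 12.2 CPM in WT and 123 and 129 CPM in KO libraries (log2 fold change 3.27, SE 0.08, adjusted p = 6.9e-16). Its relative DLL1 stood at 0.131 and 0.28 CPM in WT and 10.3 and 10.6 CPM in KO libraries (log2 fold change 5.66, SE 0.30, adjusted p = 2.3e-11). HEY1, a target of the pathway, was at 38.0 and 38.7 CPM in WT against 4.79 and 3.87 CPM in KO libraries (log2 fold change -3.15, SE 0.11). These 2 ligands were thus higher and this target lower. Of 43 WNT genes 15 were higher and 17 lower. The WNT enhancer RSPO2 rose from 0.197 and 0.28 to 14.3 and 14.3 CPM (log2 fold change 5.89, SE 0.21). The ligand WNT7B (log2 fold change -2.57, SE 0.10), the receptor FZD6 (-3.28, SE 0.16) and the feedback inhibitor NKD2 (-2.65, SE 0.06) were lower. Of 49 TGF-beta and BMP genes 21 were higher and 16 lower. The ligand GDF10 stood at 3.31 and 2.14 CPM in WT and 105 and 114 CPM in KO libraries (log2 fold change 5.32, SE 0.12). GDF6 moved in the opposite direction, from 73.4 and 77.2 to 5.82 and 5.08 CPM (log2 fold change -3.79, SE 0.08). Among 13 Hedgehog genes 5 were higher and 5 lower, and the higher were 3 without KO replicate 2. PTCH1, a receptor and target of the pathway, stood at 112 and 114 CPM in WT and 13.1 and 12.0 CPM in KO libraries (log2 fold change -3.18, SE 0.06), and the coreceptor CDON was higher (1.85, SE 0.05). Of 29 YAP and TEAD targets 14 were higher and 11 lower. The smooth muscle gene TAGLN rose from 4.95 and 6.23 to 73.4 and 66.2 CPM (log2 fold change 3.65, SE 0.10). The count of higher targets became 9 without WT replicate 1 or without KO replicate 1.

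Immune genes were mostly lower in KO cells. Of 20 genes of MHC class I presentation, 17 were lower and none was higher (median -0.90). PSMB8, a subunit of the immunoproteasome, stood at 47.7 and 50.8 CPM in WT and 9.74 and 9.39 CPM in KO libraries (log2 fold change -2.36, SE 0.08, adjusted p = 1.4e-14). TAP1, a peptide transporter subunit, stood at 34.9 and 32.5 CPM in WT and 7.26 and 6.14 CPM in KO libraries (log2 fold change -2.33, SE 0.08, adjusted p = 2.8e-14). The peptide-trimming enzyme gene ERAP2 stood at 472 and 487 CPM in WT and 164 and 167 CPM in KO libraries (log2 fold change -1.54, SE 0.05, adjusted p = 4.9e-15). The named genes of peptide production, transport and trimming thus lay below WT in both KO libraries. PSMB8, PSMB9, TAP1 and TAP2 are neighbours in the genome, and reads of the near-identical HLA genes can be split between copies. The interferon response held 21 lower and 8 higher of 38 genes. The antiviral tether BST2 stood at 17.9 and 18.0 CPM in WT and 1.53 and 1.24 CPM in KO libraries (log2 fold change -3.70, SE 0.14, adjusted p = 2.1e-13). OAS3, a sensor of double-stranded RNA, stood at 26.7 and 25.1 CPM in WT and 8.82 and 8.02 CPM in KO libraries (log2 fold change -1.62, SE 0.10, adjusted p = 1.1e-10). Of 18 NF-kB genes 11 were lower and 4 higher. The kinase IKBKE stood at 7.44 and 8.12 CPM in WT and 0.473 and 1.01 CPM in KO libraries (log2 fold change -3.37, SE 0.23, adjusted p = 5.6e-10). NFKBIZ, a nuclear IkB protein gene, stood at 25.8 and 24.4 CPM in WT and 10.9 and 10.8 CPM in KO libraries (log2 fold change -1.21, SE 0.08, adjusted p = 3.8e-10). The 4 higher NF-kB genes fell to 2 without WT replicate 1 or KO replicate 1 and to 1 without KO replicate 2.

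G protein-coupled receptors were among the most changed genes. Of 67 tested, 31 were higher, 20 were lower and 16 did not pass the test, with 25 higher and 15 lower by more than 2-fold. The bradykinin receptor BDKRB1 stood at 0.0983 and 0.175 CPM in WT and 3.67 and 3.69 CPM in KO libraries (log2 fold change 4.73, SE 0.35, adjusted p = 2.0e-09). The prostaglandin receptor PTGER4 stood at 0.0655 and 0.42 CPM in WT and 4.18 and 4.95 CPM in KO libraries (log2 fold change 4.25, SE 0.35, adjusted p = 8.9e-09). The serotonin receptor HTR1D stood at 0.0328 and 0.07 CPM in WT and 1.20 and 1.14 CPM in KO libraries (22.9-fold higher in KO, interval 7.59 to 113). These 3 were near 0 in WT cells. The PACAP and VIP receptors, chosen after their values were seen because the genes of their peptides were higher, changed in both directions. ADCYAP1R1 stood at 0.983 and 0.28 CPM in WT and 6.32 and 5.80 CPM in KO libraries (log2 fold change 3.23, SE 0.30). VIPR2 stood at 0.852 and 0.875 CPM in WT and 6.68 and 5.83 CPM in KO libraries (log2 fold change 2.85, SE 0.20), whereas VIPR1 was lower (log2 fold change -1.18, SE 0.08). GPR183, with a larger fall than any other receptor tested, lies in a long stretch of lower genes. Of 49 genes of cAMP and G protein signalling 21 were higher and 20 lower. RGS5, which shortens G protein signals, fell from 499.5 and 512 to 15.1 and 13.5 CPM (log2 fold change -5.14, SE 0.07, adjusted p = 1.6e-19). The adenylyl cyclase gene ADCY5 rose from 0.426 and 0.315 to 7.18 and 6.73 CPM (log2 fold change 4.21, SE 0.22, adjusted p = 1.1e-11). The cAMP phosphodiesterase PDE4B was higher (log2 fold change 2.91, SE 0.28).

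Integrin genes were mostly lower and cadherin genes mostly higher. Of 21 integrin genes 13 were lower and 3 higher, with 10 more than 2-fold lower and a median of -0.44 (-0.61 to -0.44 with 1 library left out). ITGA8, a matrix receptor subunit, stood at 42.0 and 43.7 CPM in WT and 0.306 and 0.439 CPM in KO libraries (log2 fold change -6.82, SE 0.14, adjusted p = 2.3e-17). The fibronectin receptor subunit ITGA5 stood at 8.32 and 8.40 CPM in WT and 0.974 and 1.42 CPM in KO libraries (log2 fold change -2.79, SE 0.17, adjusted p = 1.6e-10). ITGB8 (log2 fold change 2.43, SE 0.11) and ITGB3 (2.40, SE 0.24) were higher. Of 25 cadherin genes 17 were higher and 5 lower, with 16 more than 2-fold higher. Their median was 1.09. Over the 20 with enough reads in both genotypes, 11 were more than 2-fold higher and the median was 1.01. The 5 lower became 3 without KO replicate 1. CDH10 stood at 43.4 and 48.7 CPM in WT and 195 and 198 CPM in KO libraries (log2 fold change 2.09, SE 0.05, adjusted p = 5.3e-16). CDH6, the kidney cadherin, stood at 15.3 and 13.5 CPM in WT and 59.3 and 60.8 CPM in KO libraries (log2 fold change 2.06, SE 0.07, adjusted p = 4.6e-14). N-cadherin (CDH2), chosen after its values were seen, stood at 362 and 374 CPM in WT and 775 and 788 CPM in KO libraries (log2 fold change 1.09, SE 0.05, adjusted p = 7.7e-13). Every KO level of these 3 cadherins was above both WT levels, a separation of libraries that most tested genes share. Of 56 protocadherins 19 were higher and 11 lower, and the latter were 6 to 9 with 1 library left out. Clustered protocadherins share exons, so their reads are uncertain. PCDH19 rose from 0.819 and 0.77 to 15.3 and 16.6 CPM (log2 fold change 4.32, SE 0.16). PCDH9, in a long stretch of lower genes, fell from 27.0 and 31.8 to 2.23 and 2.48 CPM (log2 fold change -3.64, SE 0.13).

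Neural adhesion and guidance genes changed in both directions. Of 44 immunoglobulin-family adhesion genes 22 were higher and 13 lower, with 12 higher and 6 lower by more than 2-fold and a median of 0.28. Over the 38 with enough reads in both genotypes, 7 were higher and 5 lower by more than 2-fold and the median was 0.09, and 5 of the others reached the minimum in KO cells alone. The axonal neurofascin gene NFASC stood at 0.197 and 0.14 CPM in WT and 12.2 and 13.3 CPM in KO libraries (log2 fold change 6.20, SE 0.22, adjusted p = 6.2e-14). CHL1, a close relative of L1, stood at 0.0983 and 0.21 CPM in WT and 7.65 and 7.04 CPM in KO libraries (log2 fold change 5.56, SE 0.28, adjusted p = 9.1e-12). SDK2, an adhesion gene of retinal synapses, stood at 0.917 and 0.84 CPM in WT and 40.8 and 41.8 CPM in KO libraries (log2 fold change 5.55, SE 0.13, adjusted p = 2.0e-16). All 3 were below 1 CPM in both WT libraries. Of 49 guidance genes 26 were higher and 14 lower, with 15 higher and 4 lower by more than 2-fold, or 11 and 3 over the 44 with enough reads in both genotypes. The guidance ligand SLIT3 stood at 16.5 and 16.7 CPM in WT and 268 and 275 CPM in KO libraries (log2 fold change 4.03, SE 0.09, adjusted p = 4.8e-14). RGMA, a repulsive guidance gene, stood at 1.05 and 0.595 CPM in WT and 22.6 and 22.3 CPM in KO libraries (log2 fold change 4.75, SE 0.14, adjusted p = 5.9e-15). The netrin receptor UNC5A had no read in WT and 1.84 and 1.78 CPM in KO libraries (at least 35.6-fold higher in KO). The semaphorin gene SEMA5B was at 0 and 0.07 CPM in WT against 2.84 and 2.73 CPM in KO libraries (82.3-fold higher in KO, interval 22.5 to 684). SLIT3 and RGMA had KO libraries above both WT libraries, a separation that most tested genes share. UNC5A and SEMA5B reached the read minimum in KO cells alone, so the separation of their reads follows from that selection. The Eph receptor genes EPHB6 (log2 fold change -2.83, SE 0.15), EPHA3 (-1.53, SE 0.05) and EPHA2 (-1.18, SE 0.05) were lower, while of the 18 ephrin and Eph genes 9 were higher and 5 lower. The 9 higher became 5 without KO replicate 2. In junctions, CLDN4, an epithelial claudin, fell from 114 and 111 to 5.90 and 6.35 CPM (log2 fold change -4.20, SE 0.08). The gap junction gene GJA3 was at 2.29 and 2.31 CPM in WT against 0.0278 and 0.0258 CPM in KO libraries (86.0-fold higher in WT, interval 23.3 to 717). CLDN4 stands beside the lower epithelial marker sum, and so does KRT19 (log2 fold change -2.24, SE 0.23), one of those markers. Other claudin and keratin genes were higher, among them CLDN1 (log2 fold change 1.47) and KRT17 (4.15). Of 18 junction genes 4 were higher and 3 lower by more than 2-fold, and of 27 tetraspanin and keratin genes 4 and 5.

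Matrix genes changed in both directions. Of 49 laminins and matrix glycoproteins 18 higher and 12 lower passed 2-fold, of 29 collagens 7 higher and 7 lower, and of 27 proteoglycan genes 6 higher and 4 lower. Elastin (ELN) stood at 2.03 and 1.61 CPM in WT and 67.0 and 61.9 CPM in KO libraries (log2 fold change 5.14, SE 0.11, adjusted p = 3.3e-17). The brain proteoglycan SPOCK1 stood at 0.131 and 0.175 CPM in WT and 11.5 and 12.0 CPM in KO libraries (log2 fold change 6.23, SE 0.26, adjusted p = 4.4e-13). GPC3, a heparan sulfate proteoglycan, stood at 33.3 and 33.5 CPM in WT and 1.14 and 1.34 CPM in KO libraries (log2 fold change -4.74, SE 0.13, adjusted p = 1.1e-15). Elastin and SPOCK1 thus rose from low levels, and GPC3 fell to one. Of the small leucine-rich proteoglycans DCN (log2 fold change 2.44, SE 0.12) and BGN (1.80, SE 0.07) were higher and LUM (-1.49, SE 0.05) lower. COL25A1, a neuronal transmembrane collagen, stood at 11.8 and 10.3 CPM in WT and 115 and 115 CPM in KO libraries (log2 fold change 3.38, SE 0.12). The basement membrane collagens COL4A1 (-2.25, SE 0.05) and COL4A2 (-2.05, SE 0.05), neighbours in a long stretch of lower genes, fell. The plasminogen activator PLAU stood at 165 and 183 CPM in WT and 43.3 and 34.8 CPM in KO libraries (log2 fold change -2.16, SE 0.09), and its receptor PLAUR was lower too (-2.89, SE 0.21). The membrane metalloproteinases MMP15 (2.66, SE 0.08) and MMP24 (3.0, SE 0.17) were higher.

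Core p53 targets were lower more often than higher before p53 was activated. Of 38 tested, 9 were higher, 21 were lower and 8 did not pass the test (median -0.18), against 31.1% lower and 32.2% higher over all genes. The mitochondrial quality gene SPATA18 stood at 5.24 and 4.31 CPM in WT and 0.167 and 0.0258 CPM in KO libraries (log2 fold change -5.61, SE 0.38, adjusted p = 5.6e-10). EDA2R, a TNF receptor family gene, stood at 5.83 and 5.92 CPM in WT and 2.14 and 1.52 CPM in KO libraries (log2 fold change -1.69, SE 0.15, adjusted p = 2.2e-08). BTG2, an antiproliferative target, went the other way, at 15.4 and 14.8 CPM in WT and 57.4 and 62.5 CPM in KO libraries (log2 fold change 1.99, SE 0.09, adjusted p = 2.8e-10). Chromatin genes differed little, with 1 higher and 2 lower by more than 2-fold among 61. Those were CHD7, a remodeller of crest development, at 73.5 and 79.6 CPM in WT and 157 and 164 CPM in KO libraries (log2 fold change 1.07, SE 0.08, adjusted p = 3.6e-08), and the architectural factors HMGA2 (log2 fold change -1.16, SE 0.05) and HMGA1 (-1.03, SE 0.05), both lower.

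Some neighbouring genes changed together. Among 14868 tested genes that could be placed in the order of the reference annotation, 30 runs of 4 or more neighbours changed in 1 direction by more than 2-fold, 15 higher and 15 lower, with 144 genes in all. The longest, of 13 genes from PLIN2 to ELAVL2, had a median of 2.70 and included CDKN2A and CDKN2B. MTAP, the methionine salvage gene beside them, stood at 15.7 and 15.4 CPM in WT and 90.4 and 91.8 CPM in KO libraries (log2 fold change 2.55, SE 0.06, adjusted p = 3.0e-16). RPS6, a ribosomal protein gene of the run, stood at 659 and 648 CPM in WT and 1559.9 and 1479 CPM in KO libraries (log2 fold change 1.22, SE 0.05, adjusted p = 6.0e-13). MLLT3, a chromatin reader gene of the run, stood at 3.21 and 3.47 CPM in WT and 31.8 and 33.3 CPM in KO libraries (log2 fold change 3.29, SE 0.10, adjusted p = 8.8e-15). The run thus joins genes of unrelated function. Other runs were 10 S100 genes from S100A10 to S100A13 (median log2 fold change -1.97), the 6 genes from HLA-DOB to PSMB9 (-2.35) and 5 genes around DLK1 and MEG3 (4.07). Runs of 4 genes were INS, TH, C11orf21 and TSPAN32 (-6.50), ODAM, FDCSP, CSN3 and AMBN (6.75), and KCNJ11, ABCC8, USH1C and KCNC1 (3.45). Some of these genes overlap or are near-identical, so their reads can be shared.

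Over longer distances, 3 stretches differed in 1 direction, found with a running median over 31 genes at a mean log2 CPM of at least 1 and chosen after the values were seen. From MPHOSPH8 to CHAMP1, 186 of 213 genes were lower and 10 higher in KO cells, with a median of -0.87, or 1.83-fold. It covers every gene placed on its chromosome at that level. From ZMYND11 to ACBD7, 38 of 49 genes were lower and 3 higher (median -0.55), and from AK3 to ACO1, 34 of 43 were higher and 4 lower (median 1.17, or 2.25-fold). Under Nutlin-3a, in other libraries of the same cells, the medians of the 3 were -0.78, -0.51 and 0.98. Outside the stretches 33.5% of 12195 genes were higher and 33.1% lower, with a median of 0.00. The stretches hold 275 called genes and 132 of those changed by more than 2-fold. Among the called genes are RB1, GPR183, FLT1, COL4A1, COL4A2, PCDH9, SUCLA2 and EDNRB in the first, GATA3, PFKFB3, PFKP and IDI1 in the second and CDKN2A, CDKN2B, PLIN2 and ELAVL2 in the third. The first was the same with a running median over 21 or 51 genes, and the ends of the others moved. With 21 genes the second broke into stretches of 21 and 25 genes (medians -0.60 and -0.44) that left out GATA3 and ATP5C1, and the third ran over 39 genes from PLGRKT to LINGO2 (median 1.22). With 51 genes they ran over 38 genes from ZMYND11 to OPTN (-0.63) and 55 genes from FOXD4 to TOPORS (1.04). What sets these stretches apart was not tested.

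**Figure D4:**
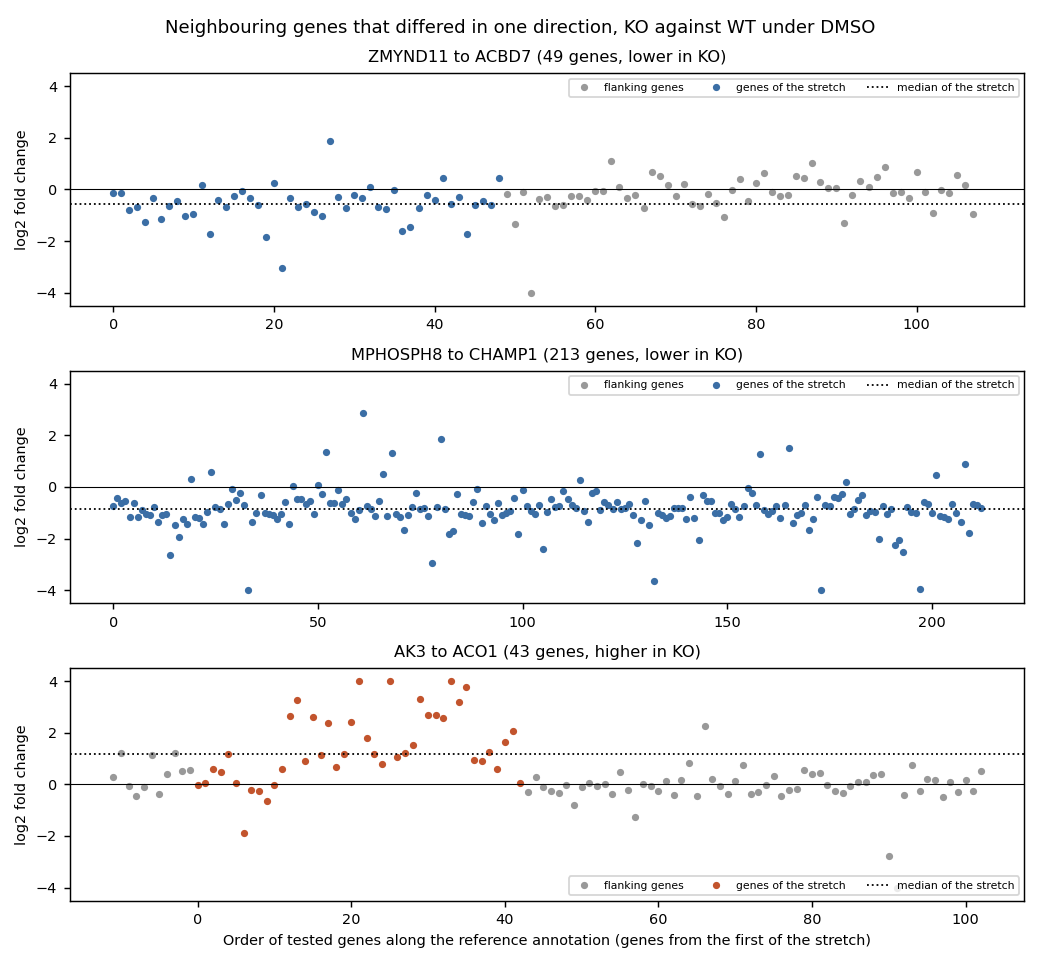
Log2 fold change of KO against WT under DMSO for each gene of the 3 stretches (coloured) and of flanking genes (grey), in the order of the reference annotation, with values beyond 4 drawn at 4 and the dotted line at the median of the stretch. The medians are -0.55, -0.87 and 1.17, and most coloured points lie on 1 side of 0.

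The genotype difference was largely present again in the Nutlin-3a libraries, which share none of the 4 DMSO libraries but come from the same 2 cell populations. At an adjusted p of 0.05, 5086 genes (33.2%) were higher and 4714 (30.7%) lower there. Of the 9712 genes called under DMSO, 6851 (70.5%) were called in the same direction under Nutlin-3a, 592 in the opposite direction and 2269 were not called. Of the 2614 that had changed by more than 2-fold, 2302 (88.1%) kept their direction, 294 were not called and 18 were opposite. The lineage genes PHOX2A, DBH, VIP, TFAP2A and NT5E kept theirs, with log2 fold changes under Nutlin-3a of 2.69 for PHOX2A, 5.67 for DBH, 7.19 for VIP, -2.22 for TFAP2A and -2.42 for NT5E. Proliferation genes were mostly higher in KO than in WT cells under Nutlin-3a, with 33 of 39 G1/S genes higher and 4 lower, and 34 of 40 G2/M genes higher and 1 lower. Of 24 cholesterol genes, 16 were lower and 4 higher there. The difference between the DMSO and the Nutlin-3a contrast was itself called at 4387 of 15341 genes (28.6%), and the named genes among them are given at the end.

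**Figure D5:**
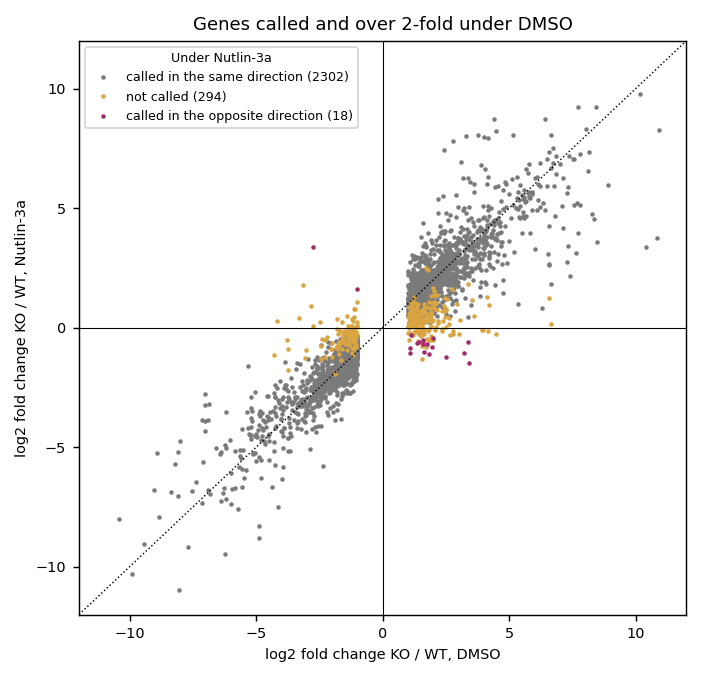
Log2 fold change of KO against WT under DMSO (x axis) and under Nutlin-3a (y axis) for the 2614 genes called and changed by more than 2-fold under DMSO, with the dotted line marking equal values. Grey points (2302) were called in the same direction, yellow points (294) were not called and purple points (18) were called in the opposite direction.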

How the data were processed

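Poly(A) RNA of 8 libraries, 2 in each of 4 groups, was sequenced after strand-specific TruSeq preparation, per the labels. The authors deposited read counts per gene and RPKM values (reads scaled by gene length and library total), each in a table of its own. The submitters' processing notes name hg19 as the build, with HTSeq 0.8.0, TopHat2 2.1.1 on Bowtie2 2.2.9.0, and SAMtools 1.5, bcl2fastq, Picard 2.9.4 and FastQC 0.11.5 beside them. Which annotation was counted, and on which strand, is not given in the sources used here. Reads of near-identical, antisense or overlapping genes may therefore be shared.

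The deposited counts of genes with 10 or more reads in at least 2 of the 4 DMSO libraries were fitted with edgeR 4.0.16 in R 4.3.3 (TMM scaling, robust quasi-likelihood, 4 group means over all 8 libraries, two-sided, 4 residual degrees of freedom). P-values were adjusted by Benjamini-Hochberg over the 15341 genes and called at 0.05. Every adjusted p in the text is from that test. The script was tested on simulated data. A group with no read was set to a floor of 3 reads, and ratios of groups with 1 to 3 reads carry 95% intervals. Both cover counting error only, as reads are not independent molecules. Alternatives used DESeq2 1.42.0 and limma 3.58.1 on the authors' deposited RPKM, with 0.1 or 1 added before the log2.

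The members, the gene lists and the tests were chosen with earlier results of these data known. Named genes are FAM193A, the 12 largest called rises and falls among protein-coding genes at a mean log2 CPM of at least 1 without overlap of the groups, up to 4 called members of a list with the largest change at 1 CPM or more, members of the longest run of neighbours, and genes whose promoter is shown. Other genes are said to be chosen after their values were seen. Some genes that meet the rule are not reported here. Neighbour order and promoter sequences come from RefSeq on GRCh38.p14, which is not the build of the counts. They were matched by symbol, and no coordinate of the counts was used.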

Additional observations from a re-analysis of the deposited data

Results flagged for a closer look

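Of 268 genes named or considered for naming and called under DMSO, 100 had a genotype difference under Nutlin-3a that differed from that under DMSO by the test of the difference itself (edgeR quasi-likelihood, adjusted p of 0.05 over all genes, at which 4387 of 15341 genes were called). The 4 with 3 or fewer reads in a group are left out, and 96 are given here by the KO against WT log2 fold change under Nutlin-3a minus that under DMSO. The differences share the DMSO libraries with the report's values. In 85 of the 96 the direction was called again under Nutlin-3a.

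Of the genes lower in KO cells, 13 were lower still under Nutlin-3a, namely CCND1 (-0.45), COL4A1 (-0.22), EPHA2 (-0.25), ERAP2 (-0.30), ETV1 (-0.24), GLI3 (-0.59), IRF1 (-0.59), LUM (-0.50), MAP1B (-0.41), NFKBIZ (-0.60), PDE1A (-1.43), RUNX2 (-0.36) and SLC2A1 (-0.93).

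Another 36 lower genes had a smaller fall, or none, under Nutlin-3a. Among lineage, signalling and surface genes these were EPHB6 (0.76), FOSL1 (1.13), GDF6 (0.66), GRIA4 (1.09), HEY1 (0.76), ICOSLG (2.68), ISL1 (0.52), KRT19 (1.21), MAP2 (0.53), MYD88 (1.14), PHLDA2 (0.65), PRRX1 (0.65), SCG2 (0.63), SHOX2 (1.33), SLC6A2 (3.73), STRA6 (0.53), TBX2 (0.34), TGFA (1.66), TH (1.31) and VGF (0.62). Among genes of sterol and fatty acid synthesis they were FASN (0.38), FDFT1 (0.27), FDPS (0.42), HMGCS1 (0.87), IDI1 (0.67), MSMO1 (0.48) and SCD (0.66). Among other genes of metabolism and division they were ACLY (0.20), ANLN (0.54), DCK (0.68), FH (0.38), GLUD1 (0.28), MTHFD1 (0.94), PFKFB3 (0.41), PNP (0.67) and SLC16A3 (0.55). The genotype difference was not called under Nutlin-3a for ANLN, the anillin gene of cell division, and MTHFD1, a folate enzyme gene. It was called in the opposite direction for DCK, the deoxycytidine kinase gene.

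Of the genes higher in KO cells, 27 had a smaller rise, or none, under Nutlin-3a. Among channels, receptors and signalling genes these were ADCY5 (-1.05), BDKRB1 (-2.07), CHRNA3 (-1.01), ERBB4 (-1.75), KCNJ11 (-1.66), KCNJ2 (-1.19), NGFR (-0.78), PDGFA (-1.69), RGMA (-2.74), SCN3B (-3.29) and VIPR2 (-1.02). The others were ACTA2 (-2.37), ANKRD1 (-0.49), BTG2 (-2.41), CDH10 (-0.42), CDKN2A (-0.98), CLDN1 (-1.28), ELOVL2 (-4.02), KDM5B (-1.04), KRT17 (-4.29), MAN1C1 (-2.00), PRODH (-2.00), RPS6 (-0.33), SATB1 (-1.56), TAGLN (-0.44), TM7SF2 (-0.58) and TSPAN18 (-0.49). ACTA2, CLDN1, ELOVL2, KDM5B, KRT17 and PRODH were not called under Nutlin-3a, and BTG2 and TM7SF2 were called in the opposite direction.

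A further 20 higher genes were higher still under Nutlin-3a, namely CALCB (0.49), CDC25B (0.63), CDON (0.44), COL14A1 (0.94), COL25A1 (0.57), E2F2 (2.18), ELAVL2 (0.73), GAL (0.90), GDF10 (1.00), HOXD3 (0.54), HOXD9 (0.23), MLLT3 (0.54), MTAP (0.58), PHOX2A (0.43), RET (0.46), ROR2 (0.57), SLC1A4 (0.96), SYT7 (1.15), UGT8 (1.08) and VIP (0.33).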

How the results depend on the processing

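Over 21 alternatives the genes higher in KO cells under DMSO numbered 4069 to 5571 and those lower 3811 to 5214, and the genes called again under Nutlin-3a 5587 to 7049. With 1 library left out the counts were 4175 to 5287 higher and 4016 to 5136 lower, and past 2-fold 1414 to 1545 and 1032 to 1099. The counts past 2-fold fell by more than 1.5 times only with limma on log2(RPKM + 1), to 586 higher and 418 lower, where the added 1 shrinks the fold of low genes. DESeq2 called 4168 higher and 4590 lower, and 1396 and 1069 past 2-fold. Of 268 genes, 260 kept their call in every alternative that gave them a value, 8 lost it in at least 1 and none reversed. Leaving out the long stretches gave no value for 20 of the 268. FAM193A was among the 8, with an adjusted p of 0.0528 by limma without a filter on low values, against 9.6e-04 by edgeR and 5.1e-09 to 0.0301 over the other alternatives. Those named in the report kept theirs in the same sense, but for FAM193A. Without the genes of the 3 long stretches, an alternative chosen after the values were seen, 4892 genes were higher and 4545 lower.

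Same-numbered libraries did not deviate together, with correlations of their deviations from -0.03 to 0.08 over 6 pairs of groups. The replicate block gave 4941 genes higher and 4772 lower, 1524 and 1090 past 2-fold, and 6858 called again under Nutlin-3a.

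There are 2 libraries in each group and 1 KO population, so the p-values speak of these cells. Genes under 10 reads in 3 or more DMSO libraries were not tested. For genes with no read in 1 genotype, 37 in WT and 17 in KO cells among those tested, the size of the change is known only as a lower bound.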

Other observations

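Of 25 ganglioside and sphingolipid genes tested, 9 were higher and 9 lower in KO cells. CERS4, a ceramide synthase gene, stood at 4.10 and 3.96 CPM in WT and 12.4 and 12.2 CPM in KO libraries (log2 fold change 1.61, SE 0.12, adjusted p = 2.2e-09). ST3GAL5, whose enzyme makes the ganglioside GM3 from which the neuroblastoma antigen GD2 is built, stood at 24.9 and 22.4 CPM in WT and 12.1 and 12.7 CPM in KO libraries (log2 fold change -0.93, SE 0.09, adjusted p = 1.1e-07). UGT8, which makes galactosylceramide, was higher in both KO libraries too (log2 fold change 0.98, SE 0.11). Of 23 serine, glycine and folate genes 6 were higher and 8 lower. The neutral amino acid transporter SLC1A4 stood at 8.85 and 7.25 CPM in WT and 14.9 and 14.7 CPM in KO libraries (log2 fold change 0.87, SE 0.11, adjusted p = 2.1e-06).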
